A study of Mus musculus with 4 samples.

Results

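The 10 genes described here encode hemogenic transcription factors, the regulators through which mesoderm and endothelium acquire blood fate: Tal1, Lyl1, Lmo2, Gata2, Cbfa2t3, Runx1, Hhex, Myb, Gfi1b and Ikzf2. They were taken by symbol from the annotation of the array platform, using probe sets that carry exactly 1 symbol, and were chosen with earlier results of these arrays known. All 10 had a probe set, out of 14860 genes named in this way, and each had 1 probe set only. RNA was measured on 4 Affymetrix arrays, 1 for each of 4 populations of mouse embryonic stem (ES) cells that had been differentiated for 3 days and sorted for Flk-1, the VEGF receptor (gene Kdr) that marks mesoderm with blood and vessel potential. The populations were iER71 cells, a line with inducible ER71 labelled wild-type in genotype, given doxycycline (1 mg/ml per the labels) over the last day of culture, from day 2; the same line without doxycycline; Er71-/- cells; and wild-type cells. ER71, an ETS-family transcription factor, is the product of Etv2. The labels do not say whether a line is 1 clone, what drives the transgene, or which part of Er71 is deleted. All ES cells had been kept on embryonic fibroblast feeders before differentiation, and the RNA was amplified before labelling.

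For the inducible line the labels conflict. The array given doxycycline is titled control, and the array given none is titled ER71 overexpressed. Here each array is named by its doxycycline label, no array was reassigned, and the labels leave it undecided which of them had the higher ER71 level.

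Tal1, also called SCL, and its relative Lyl1 are basic helix-loop-helix proteins that bind E-box DNA together with E proteins. Lmo2, a LIM-domain adaptor, joins this dimer through Ldb1 to a GATA factor, Gata2 in early progenitors, and Cbfa2t3 (ETO2) is a corepressor recruited to the same complex. Runx1 acts with Cbfb when blood cells emerge from hemogenic endothelium, Gfi1b is a zinc-finger repressor of endothelial genes in that step, and Myb sustains definitive progenitors. Hhex is a homeobox protein of early endothelium and blood that is also made in anterior endoderm, and Ikzf2 (Helios) is a zinc-finger protein of the Ikaros family. Mice without Tal1 or Lmo2 make no blood.

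With 1 array for each population there is no replicate spread, so no test, error or p-value stands behind any value below. Levels are the log2 of the deposited linear intensity, and the median of all values, log2 6.16, serves as a landmark because no detection call came with the values. A gene is called where 2 arrays differ by 2-fold or more, which is 1 on the log2 scale, among the 8843 genes whose brightest array reached that median. Exact ties between arrays are common in these values, from 15.1% to 20.0% of probe sets for a pair of arrays. Etv2 was at log2 10.05 without doxycycline, 10.50 with it, 8.89 in Er71-/- cells and 9.39 in wild type, so it was under 2-fold in both pairs. Kdr lay between 9.67 and 10.19 on all 4 arrays.

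Every one of the 10 genes reached the median on some array, and 7 did so on all 4. Of the 40 values, 3 fell below the median: Hhex, Ikzf2 and Myb on the Er71-/- array. The Er71-/- array was the lowest of the 4, without a tie, for 9 of the 10 genes, against 29.5% of all genes tested. Runx1 was the exception, being lowest on the doxycycline array, as were 26.8% of genes. The doxycycline array was the highest for 7 of the 10 genes, against 29.6% of genes, and wild type was the highest for Runx1, Gfi1b and Myb. For Cbfa2t3 and Lyl1 the doxycycline array led wild type by only 0.003 and 0.017 on the log2 scale.

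**Figure D1:**
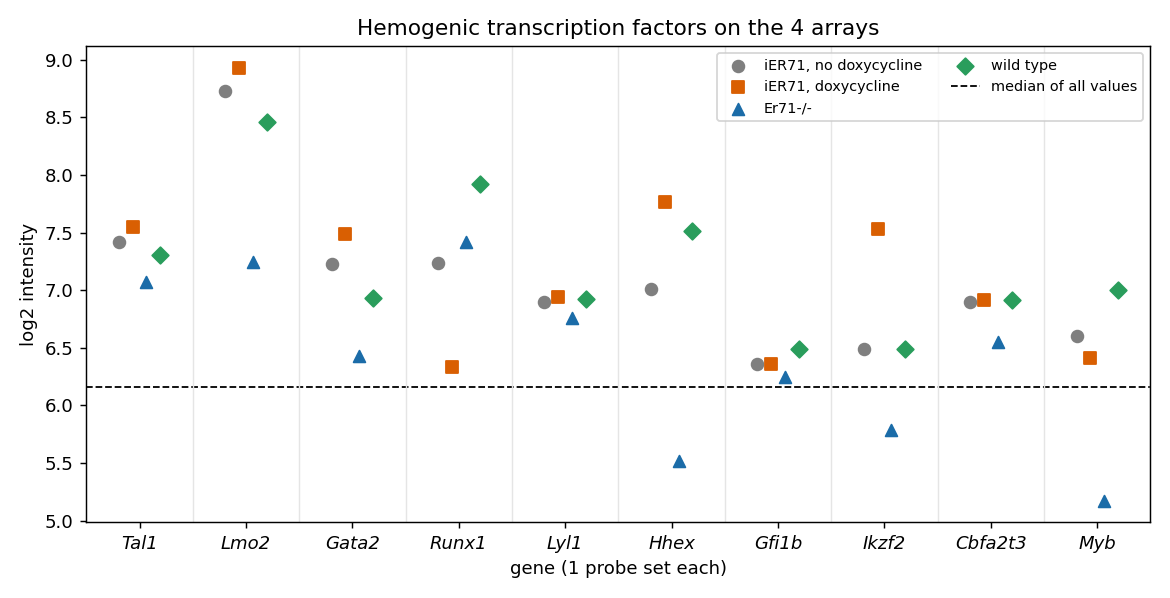
Log2 intensity of each hemogenic transcription factor (x axis) on the 4 arrays, 1 point per array, with the median of all values (6.16) as a dashed line; heights of different genes come from different probe sets and are not comparable. The Er71-/- points of Hhex, Ikzf2 and Myb lie below the line, and the doxycycline point of Runx1 lies under its other points.

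The promoter windows of Hhex, Myb, Runx1 and Lyl1 are shown because the first pair had the largest differences between Er71-/- and wild-type cells, Runx1 was the lowest of the 10 differences with doxycycline, and Lyl1 had the smallest difference between Er71-/- and wild-type cells. Each window holds the 250 bases before a RefSeq transcript start in GRCm38.p6, read 5′ to 3′ on the strand of the gene. Capitals mark ETS-type letters (CCGGAA or GGAAGT) and GATA-type letters (GATAA), on either strand.
Hhex, chr19:37434591-37434840, plus strand: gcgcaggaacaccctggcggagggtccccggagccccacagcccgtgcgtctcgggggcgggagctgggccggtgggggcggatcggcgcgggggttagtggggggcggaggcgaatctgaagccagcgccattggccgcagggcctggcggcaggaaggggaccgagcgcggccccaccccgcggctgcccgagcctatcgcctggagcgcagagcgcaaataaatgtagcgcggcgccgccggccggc
Myb, chr10:21160985-21161234, minus strand: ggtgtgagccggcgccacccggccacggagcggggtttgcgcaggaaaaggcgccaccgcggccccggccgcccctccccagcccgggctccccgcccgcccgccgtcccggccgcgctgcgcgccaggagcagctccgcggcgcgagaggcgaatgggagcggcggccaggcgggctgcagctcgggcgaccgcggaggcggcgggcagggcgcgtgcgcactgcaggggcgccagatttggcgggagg
Runx1 distal start, chr16:92826075-92826324, minus strand: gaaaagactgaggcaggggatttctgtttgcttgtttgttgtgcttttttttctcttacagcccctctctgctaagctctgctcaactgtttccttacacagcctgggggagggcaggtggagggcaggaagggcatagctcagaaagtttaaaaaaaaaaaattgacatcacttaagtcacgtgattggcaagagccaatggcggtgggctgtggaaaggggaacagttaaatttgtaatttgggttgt
Runx1 proximal start, chr16:92697330-92697579, minus strand: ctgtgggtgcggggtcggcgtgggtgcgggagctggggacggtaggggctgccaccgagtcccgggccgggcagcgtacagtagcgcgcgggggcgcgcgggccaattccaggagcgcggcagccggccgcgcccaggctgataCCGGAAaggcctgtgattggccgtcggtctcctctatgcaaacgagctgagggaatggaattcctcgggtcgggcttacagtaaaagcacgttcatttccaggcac
Lyl1, chr8:84701207-84701456, plus strand: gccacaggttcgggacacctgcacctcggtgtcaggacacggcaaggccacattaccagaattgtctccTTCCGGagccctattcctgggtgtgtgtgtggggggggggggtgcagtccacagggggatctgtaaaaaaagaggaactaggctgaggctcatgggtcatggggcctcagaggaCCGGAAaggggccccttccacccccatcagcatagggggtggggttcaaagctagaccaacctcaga

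Of the 10 genes, 8 had at least 1 such window in the RefSeq table, and they had 12 windows in all. The Hhex and Myb windows hold neither of the 2 ETS-type forms searched, no GATAA, and no E-box (CANNTG) either. Other ETS-type forms were not searched, so these windows may hold some. Lyl1 holds CCGGAA at 2 places, starting 181 and 67 bases before the start, and the proximal Runx1 window holds it once, 106 bases before the start; the Lyl1 window also holds 1 E-box. The distal Runx1 window holds 3 E-boxes and none of the capitalised letters. Among 32851 windows of the same length in the table, 12.0% hold CCGGAA, 19.7% GGAAGT, 22.6% GATAA and 66.2% an E-box. Both Gata2 windows hold none of these letters, 1 of 2 Tal1 windows holds GATAA, and the Gfi1b window holds GATAA and 2 E-boxes. The 2 Cbfa2t3 windows differ: the upstream one holds GATAA once, CCGGAA once, GGAAGT at 2 places and 4 E-boxes, among them CAGATG, the form favoured by Tal1 dimers, which 14.4% of all windows hold, while the downstream one holds 1 E-box only. The RUNX-type letters TGTGGT are in none of the 12 windows and in 14.0% of all. These matches are descriptions of the letters and show no binding.

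The genes of the Tal1 complex behaved unequally, and of these only Lmo2 differed by 2-fold or more between Er71-/- and wild-type cells. Tal1 (probe set 6916487) was at log2 7.42 without doxycycline, 7.55 with it, 7.07 in Er71-/- cells and 7.30 in wild type. All 4 values lie within 0.48, with Er71-/- cells lowest, 1.18-fold below wild type. Lyl1 (probe set 6977758) was at 6.90, 6.94, 6.76 and 6.92 in the same order, a 1.12-fold difference between wild type and Er71-/- cells and the smallest among the 10 genes. Lmo2 (probe set 6879637) was at 8.73 without doxycycline, 8.93 with it, 7.24 in Er71-/- cells and 8.46 in wild type. It was thus lower on the Er71-/- array than on each of the others, by 2.33-fold against wild type, rank 90 from the lowest of 8843 differences. Between the untreated iER71 and wild-type arrays Lmo2 differed by 0.27 on the log2 scale, in favour of the former. With an offset of 50 added to the linear values the Lmo2 difference came to just under 2-fold.

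Gata2 (probe set 6947763) was at log2 7.23 without doxycycline, 7.49 with it, 6.43 in Er71-/- cells and 6.93 in wild type. It was 1.19-fold higher with doxycycline than without and 1.41-fold higher in wild type than in Er71-/- cells. Its range over the arrays was 1.05, from the doxycycline array at the top to the Er71-/- array at the bottom. Cbfa2t3 (probe set 6985946) was at 6.90, 6.92, 6.55 and 6.91 in the same order of arrays. The 3 arrays with an intact Er71 gene lay within 0.02 of each other for this corepressor, and the Er71-/- array was 1.28-fold below wild type.

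Hhex and Myb had the largest differences between Er71-/- and wild-type cells. Hhex (probe set 6869509) was at log2 7.01 without doxycycline, 7.77 with it, 5.52 in Er71-/- cells and 7.51 in wild type. It was 3.98-fold lower in Er71-/- cells than in wild type, rank 25 from the lowest of 8843 differences, and 1.69-fold higher with doxycycline than without. Myb (probe set 6772594) was at 6.60 without doxycycline, 6.41 with it, 5.17 in Er71-/- cells and 7.01 in wild type. It was 3.56-fold lower in Er71-/- cells than in wild type, rank 32, yet differed by only -0.19 with doxycycline against none. For both genes the Er71-/- value lies below the median of all values, at the 36.2 and 29.7 percentile of that array, so the size of the fold is uncertain. The untreated iER71 array was itself below wild type for both, by 0.50 for Hhex and 0.40 for Myb on the log2 scale, and it still lay 2.81-fold and 2.69-fold above the Er71-/- array.

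Runx1 had another order of arrays. Its probe set (6847972) was at log2 7.24 without doxycycline, 6.33 with it, 7.42 in Er71-/- cells and 7.92 in wild type. The doxycycline array was lowest, 1.87-fold below the untreated one and 3.01-fold below wild type, while Er71-/- cells were 1.42-fold below wild type. The step between Er71-/- and wild type, -0.51 on the log2 scale, was smaller than that between the untreated iER71 array and wild type, -0.68. Er71-/- cells and untreated iER71 cells were close, differing by 0.18. With doxycycline Runx1 was the 134th lowest of the 8843 differences and did not reach 2-fold. The array has 1 probe set for Runx1, so transcripts from its distal and proximal starts were not separated.

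Gfi1b (probe set 6885627) lay near the median on every array, at log2 6.36 without doxycycline, 6.36 with it, 6.25 in Er71-/- cells and 6.49 in wild type. Its iER71 values were exactly equal, and its whole range was 0.24. Ikzf2 (probe set 6759549) was at 6.49 without doxycycline, 7.53 with it, 5.78 in Er71-/- cells and 6.49 in wild type. The untreated and wild-type values of Ikzf2 were exactly equal, the doxycycline array was 2.06-fold above both, and the Er71-/- array was 1.63-fold below both. Its Er71-/- value is below the median. The 2-fold call with doxycycline was narrow: the difference was 1.05 on the log2 scale as deposited, 0.99 after quantile normalization and 0.75 with the offset of 50.

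**Figure D2:**
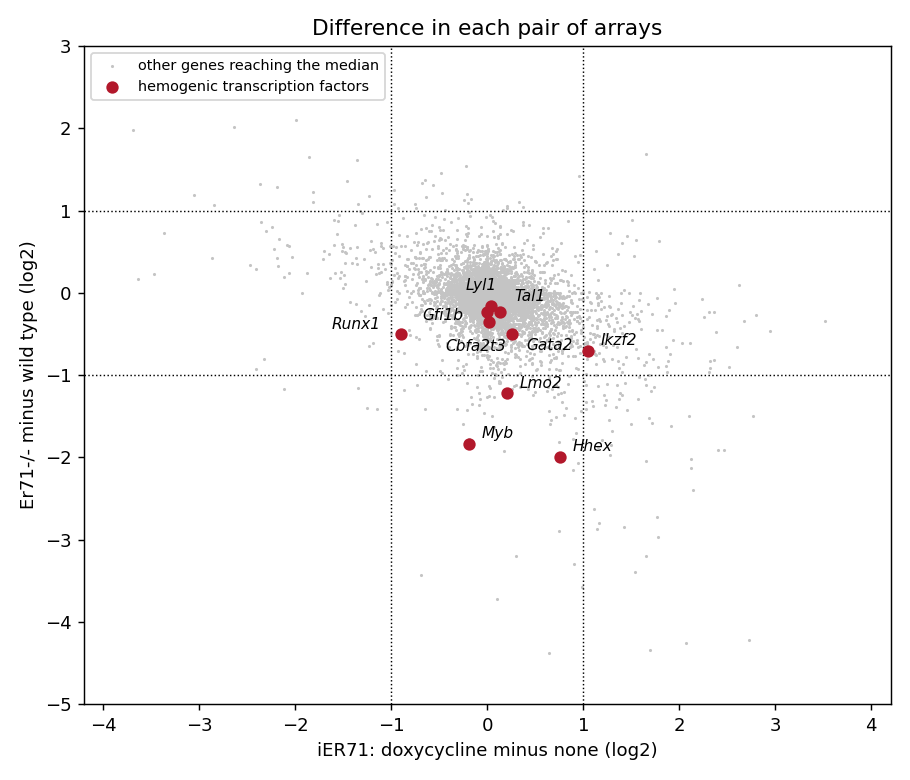
Difference in log2 intensity between the iER71 arrays (x axis, doxycycline minus none) and between Er71-/- and wild type (y axis) for 8843 genes in grey, with the 10 hemogenic transcription factors in red and dotted lines at 2-fold. The 10 red points lie at or below -0.16 on the y axis, while on the x axis they run from -0.90 for Runx1 to 1.05 for Ikzf2.

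The first comparison sets the inducible line with doxycycline against the same line without it. With doxycycline against none, 1 of the 10 genes, Ikzf2, was at least 2-fold higher, where 2.41% of all genes tested were, and 0 were at least 2-fold lower, where 1.23% were. By any amount 7 of 10 were higher (44.6% of all genes), 2 were lower, Runx1 and Myb (39.1%), and Gfi1b was equal (16.2%). The median difference of the 10 genes was 0.09 on the log2 scale, beside 0.00 for all genes. Tal1, Lyl1, Lmo2, Gata2 and Cbfa2t3, the genes of the Tal1 complex, were each higher with doxycycline by between 0.02 and 0.26 on the log2 scale. After quantile normalization Lyl1 and Cbfa2t3 had the other sign, at -0.02 and -0.04, and after centring on the medians Cbfa2t3 did, at -0.0033.

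The second comparison sets Er71-/- cells against wild-type cells. With 1 array each, other differences between these cell populations cannot be told apart from loss of ER71. In Er71-/- cells 3 of the 10 genes, Lmo2, Hhex and Myb, were at least 2-fold lower than in wild type, where 1.58% of all genes tested were, and 0 were at least 2-fold higher, where 0.43% were. All 10 were lower by some amount, as were 52.9% of all genes, and none was higher, as were 30.6%, with 16.4% exactly equal. The median difference was -0.50 on the log2 scale, beside -0.01 for all genes, and the 10 values ran from -1.99 for Hhex to -0.16 for Lyl1. Where both arrays had to reach the median, only Lmo2 was left of the 3 calls, because the Er71-/- values of Hhex and Myb lie below it.

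Other pairs of arrays give the same values from another side; they share arrays with the pairs above and are not independent of them. Against the untreated iER71 array the Er71-/- array was at least 2-fold lower for the same 3 genes, Lmo2, Hhex and Myb (1.19% of all genes), and higher by that size for none (0.486%). Lower by at least 2-fold against both references were 0.814% of all genes. Against the doxycycline array the Er71-/- array was at least 2-fold lower for 5 genes, Hhex (4.76-fold), Ikzf2 (3.36-fold), Lmo2 (3.23-fold), Myb (2.36-fold) and Gata2 (2.07-fold), where 4.59% of genes were, and higher for Runx1 (2.12-fold), where 2.01% were. The doxycycline array differed from wild type by at least 2-fold for Ikzf2, higher as were 2.63% of genes, and for Runx1, lower as were 1.47%. The untreated iER71 and wild-type arrays, which come from different lines, differed by -0.68 (Runx1) to 0.30 (Gata2) on the log2 scale, with a median of -0.02.

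Partner genes of the Tal1 complex come first among the context lists, which are read beside all genes tested. Some genes stand in several lists, so the counts of the lists are not independent. Sox17 is counted among blood factors, endothelial markers and endoderm markers, Gata4 among paralogues, endoderm and cardiac markers, and Mesp1 among cardiac and mesoderm markers. With doxycycline 2.41% of all genes were at least 2-fold higher and 1.23% at least 2-fold lower. In Er71-/- cells 0.43% were at least 2-fold higher and 1.58% at least 2-fold lower. Of 14 E proteins, LIM partners and Id inhibitors that reached the median, 2 passed 2-fold upwards with doxycycline and none in Er71-/- cells, and the medians were 0.00 and -0.01. The LIM-binding gene Ldb2 was at log2 7.66 without doxycycline, 9.19 with it, 7.94 in Er71-/- cells and 7.49 in wild type, 2.88-fold higher with doxycycline. Ssbp2, which stabilises Ldb proteins, lay between 6.62 (Er71-/-) and 7.15 (wild type) on the arrays without doxycycline and was 2.01-fold higher with it than the 6.99 of the untreated array. Ldb1, the main bridging partner of Lmo2, stayed between 8.95 and 9.05 on the 4 arrays, and the E protein gene Tcf3 between 7.31 and 7.32. Id1, whose product holds E proteins away from DNA, was 1.74-fold higher in Er71-/- cells (7.91) than in wild type (7.11). Its iER71 values, 7.79 without doxycycline and 7.92 with it, were near the Er71-/- value, so wild type was the array apart. Lmo1, a relative of Lmo2, was 1.82-fold lower with doxycycline.

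Cofactors and paralogues of the 10 genes were read in the same way. None of 13 cofactors passed 2-fold in either pair: the Runx1 partner Cbfb lay between 8.74 and 9.31 on the log2 scale and the demethylase gene Kdm1a, a partner of Gfi1b, between 10.25 and 10.28. The repressor gene Tle3 was 1.72-fold lower with doxycycline, and Zfpm2, a partner of GATA factors, was 1.81-fold lower in Er71-/- cells. Both Zfpm2 values, 5.02 in Er71-/- cells and 5.88 in wild type, lie below the median, so the size of that fold is uncertain. Of 14 paralogues, 2 were at least 2-fold lower with doxycycline, where 1.23% of all genes were. They were Gata4 (3.11-fold), a factor of heart and endoderm, and Gata3 (2.49-fold). No paralogue passed 2-fold in Er71-/- cells. Gata1, the erythroid GATA factor, was dim, at 6.07 without doxycycline, 5.95 with it, 6.05 in Er71-/- cells and 6.52 in wild type. Ikzf1, the founding Ikaros gene, was at 6.05, 5.81, 5.38 and 6.32 in that order, above the median in wild type only.

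Of 19 other blood transcription factors that reached the median, 3 passed 2-fold upwards with doxycycline and 3 passed it downwards in Er71-/- cells, with medians of 0.00 and -0.15. The ETS genes Fli1 and Erg were in both sets. Fli1 was 3.24-fold higher with doxycycline and 20.3-fold lower in Er71-/- cells, and Erg 2.16-fold and 6.18-fold. Sox17 (2.24-fold), a SoxF gene of hemogenic endothelium, was the third higher gene, and Mecom (2.92-fold), a regulator of blood stem cells, the third lower one. The Er71-/- values of Fli1 (5.39), Erg (5.52) and Mecom (5.23) lie below the median, so the size of these folds is uncertain.

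Genes of differentiated blood were mostly dim. Of 5 erythroid genes that reached the median, 2 were at least 2-fold lower in Er71-/- cells, the embryonic globin genes Hbb-y (10.8-fold) and Hba-x (2.08-fold), and none passed 2-fold with doxycycline. Hbb-y reached the median in wild type alone, at log2 8.71 against 4.94 to 5.63 elsewhere. Of 4 platelet genes, 1 passed 2-fold with doxycycline, Pf4 (3.40-fold higher, at 6.42 against 4.65), and none in Er71-/- cells. Pf4 reached the median on the doxycycline array alone, so the size of its fold is uncertain. The integrin gene Itga2b, a mark of the first committed blood progenitors, was at 6.53 without doxycycline, 6.89 with it, 6.29 in Er71-/- cells and 6.93 in wild type. Of 10 progenitor and leukocyte surface genes, 3 were called higher with doxycycline, Cd34 (3.28-fold), Cd93 (2.52-fold) and the cytokine receptor Kit (2.44-fold), and the same 3 together with Laptm5 (2.37-fold) were lower in Er71-/- cells. The Er71-/- values of Kit (5.79), Cd34 (5.15), Cd93 (4.62) and Laptm5 (5.67) lie below the median. So do those of Cd93 in wild type (6.02) and without doxycycline (5.58). The size of the folds that use these values is uncertain. Of 18 blood progenitor and leukocyte surface genes with a probe set, 10 reached the median; Ptprc, at 3.39, and Vav1, at 4.43 to 4.47, were below it on every array.

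**Figure D3:**
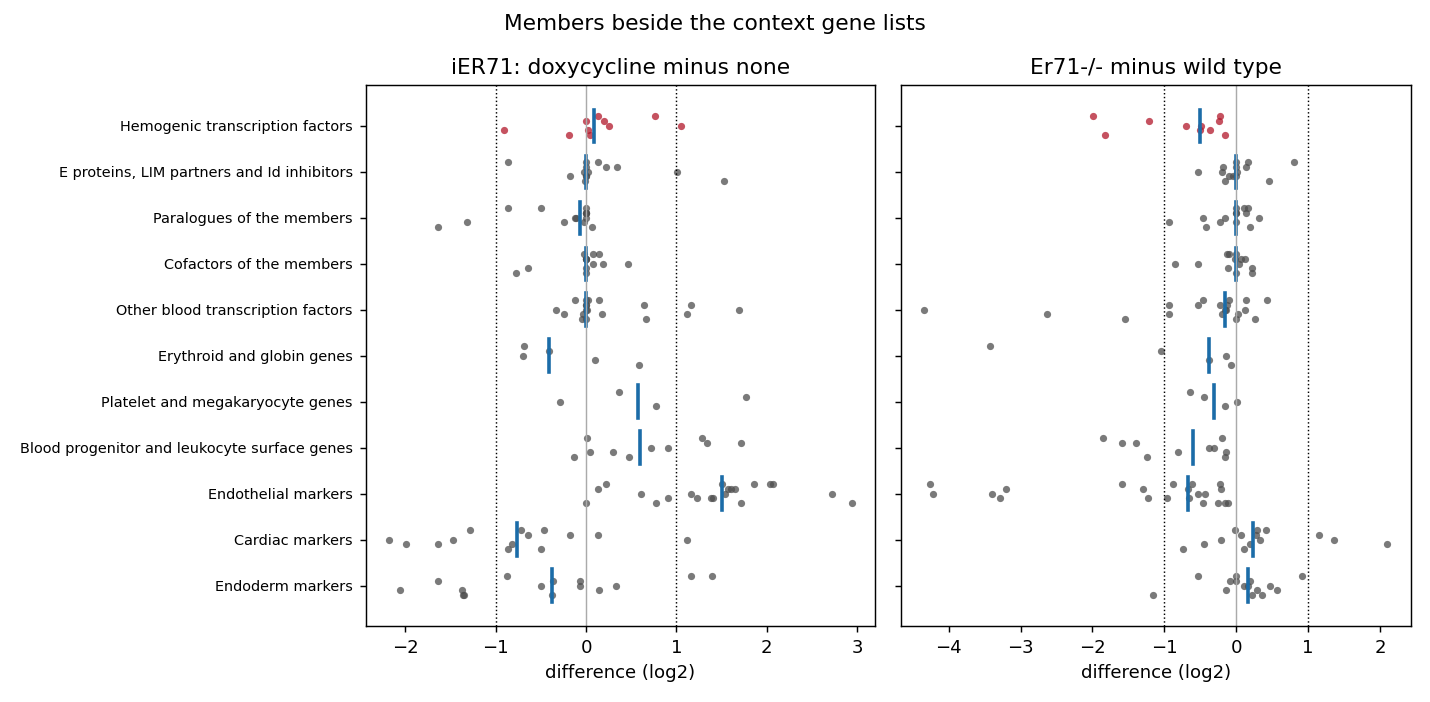
Differences in log2 intensity with doxycycline (left) and in Er71-/- cells (right), 1 point per gene that reached the median, for the hemogenic transcription factors (red) and 10 other gene lists, with list medians as blue bars and dotted lines at 2-fold. The blue bar of the hemogenic factors stands at 0.09 on the left and -0.50 on the right, and that of the endothelial markers lies past the 2-fold line on the left and at -0.68 on the right.

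Markers of other cell types moved with the groups. With doxycycline 15 of 21 endothelial markers were called higher, in Er71-/- cells 8 were called lower, and none passed 2-fold the other way. These markers include Kdr, the gene of the sorting marker, which lay between log2 9.67 and 10.19 on all arrays. Summed linear intensity over all 21 was 4444 without doxycycline, 12102 with it, 1961 in Er71-/- cells and 4893 in wild type. In that order of arrays, 6, 0, 16 and 6 of the 21 lay below the median. The highest and the lowest array were thus the same as for 7 of the 10 hemogenic factors, all but Runx1, Gfi1b and Myb. For Cbfa2t3 and Lyl1 the lead of the doxycycline array was very small. The part of endothelial cells in the results of the hemogenic factors was not tested. In bulk samples such as these, fewer cells of a type and less RNA per cell cannot be told apart. Of 15 endoderm markers, listed because Hhex is also an endoderm gene, 5 were at least 2-fold lower and 2 higher with doxycycline, and 1, Spink1, was at least 2-fold lower in Er71-/- cells. Summed over the 19 endoderm markers on the array the intensity was 3335, 2423, 2740 and 2387 in the order above. Their levels varied. Afp lay far below the median on all 4 arrays (3.57 to 3.74) and Foxa2 close to it (6.03 to 6.25). Cer1 was at 7.21 without doxycycline and below the median elsewhere (5.68 to 5.84). Cxcr4 was at 8.02 without doxycycline, 5.96 with it, 8.75 in Er71-/- cells and 8.18 in wild type. Dab2 was 2.63-fold higher with doxycycline.

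Cardiac and mesodermal markers ran the way of Runx1 in the iER71 pair but not in the Er71-/- pair. Of 14 cardiac markers, 5 were at least 2-fold lower with doxycycline and 1 higher, with a median of -0.77, and 3 were at least 2-fold higher in Er71-/- cells. Of 14 mesoderm markers, 7 were at least 2-fold lower with doxycycline, with a median of -1.09, and 3 at least 2-fold higher in Er71-/- cells. Summed cardiac intensity was 2434 without doxycycline, 1377 with it, 3468 in Er71-/- cells and 2643 in wild type, while Runx1 was higher in wild type than in Er71-/- cells. The part of these cells in the Runx1 values was not tested. Fibroblast markers (0 of 5 past 2-fold in either pair, summed intensity 741 to 789) moved little, of 6 neuroectoderm markers 1 passed 2-fold, lower with doxycycline, and of 10 pluripotency markers 2 passed it each way with doxycycline and 1 was higher in Er71-/- cells.

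The profile of each gene that spanned at least 1 on the log2 scale was set against all genes tested, by the root-mean-square distance between values centred on the gene's own mean over the 4 arrays. With 4 arrays such a likeness is a description. The nearest genes were Clic6 (distance 0.07), Dcaf12l1 (0.16) and Slc46a3 (0.19) for Lmo2, and Gldc (0.04), Bcat2 (0.05) and Fam110c (0.07) for Gata2. They were Gchfr (0.09), Tfec (0.11) and Igf1 (0.15) for Hhex, and Lrrc8c (0.12), Efcab7 (0.16) and Egln3 (0.19) for Myb. Ikzf2 lay nearest to Tet2, Slc17a5 and Arrb2, each at 0.03. Runx1 lay nearest to the Wnt ligand gene Wnt2 (0.06), Apcdd1 (0.10) and the troponin gene Tnnt2 (0.11), of which the first and last are in the cardiac list. In Er71-/- cells against wild type Wnt2 and Tnnt2 differed by -0.45 and -0.74 on the log2 scale, whereas the cardiac list had a median of 0.23. Among the 10 factors themselves the nearest to Hhex was Lmo2, in place 35 of all genes by likeness, and the nearest to Myb was also Lmo2, in place 42. For Lmo2 it was Gata2, in place 46, whereas for Runx1 the nearest of the other 9 was Gfi1b, in place 2621.

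**Figure D4:**
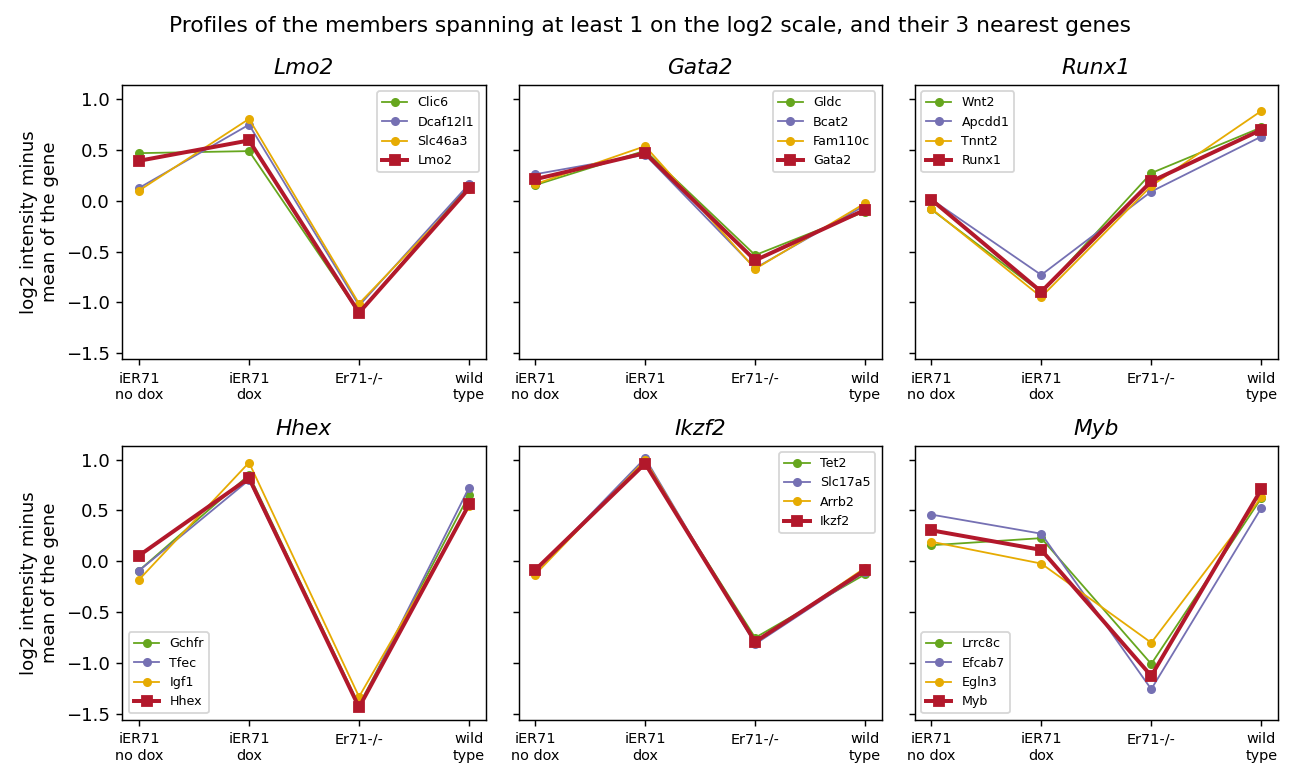
Log2 intensity on the 4 arrays minus the mean of the gene, for the 6 hemogenic factors that span at least 1 (thick red) and their 3 nearest genes each; lines only join the points of 1 gene. Lmo2, Gata2, Hhex, Ikzf2 and Myb dip on the Er71-/- array, and Runx1 dips on the doxycycline array.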

How the data were processed

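The deposited values are linear intensities for 23332 probe sets on 4 arrays, 1 per population, which the authors had normalized; RMA, Affymetrix Expression Console and build mm8 are named, without versions, per the submitters' processing notes. Because RMA usually returns log2 values and these are linear (2.03 to 14557), log2 was taken here. Array medians were 71.3 to 72.3, and arrays correlated across probe sets with Pearson's r of 0.967 to 0.979. Each array is named by its doxycycline or genotype label, since 2 titles oppose those labels. Symbols came from the platform annotation (14996 probe sets with 1 symbol, 1019 with several, 7317 with none), and the brightest probe set stood for a gene. The members and lists were chosen with earlier results of these data known. The context genes named were mainly, by rule, up to 4 per list with the largest difference; Ldb1, Tcf3, Cbfb, Kdm1a, Gata1, Ptprc, Vav1, Afp, Foxa2 and Spink1 were added after their values were seen, for their role. Predicted genes and olfactory and vomeronasal receptors were left out, and 3 profile neighbours were named per gene. Sequences are RefSeq's (GRCm38.p6); no coordinate of mm8 was used. Alternatives were 8 settings, run with Python 3.11.15, pandas 2.3.3, R 4.3.3 and limma 3.58.1. Fold calls were tested on simulated data. The number of arrays limits the precision.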

Additional observations from a re-analysis of the deposited data

How the results depend on the processing

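Differences of single member genes were recomputed under the 4 settings that can alter them (3 normalizations and an offset). Of these 80 differences, 74 neither reversed their direction nor crossed the 2-fold threshold. The other 4 settings change the genes kept, the probe sets or the threshold and leave these differences as they are. Gfi1b, at 0 in the iER71 pair as deposited, has no direction there and is counted among the 74. With quantile normalization or an offset of 50 the count of the 10 genes at least 2-fold higher with doxycycline was 0, since Ikzf2 came to 0.99 and 0.75 on the log2 scale. Of all genes 192 of 8851 and 108 of 8843 were higher under these settings. With the call at 1.5-fold 2 of the 10 were higher (Hhex joined), where 558 of 8843 genes were. At that call 1 of the 10, Runx1, was lower, where 280 of 8843 genes were. In Er71-/- cells against wild type the count of lower genes was 3 as deposited, 2 with the offset and 4 at 1.5-fold (Ikzf2 joined). Where both arrays had to reach the median it was 1, because 3 genes left the comparison, and the median difference was then -0.36; with the offset that median was -0.37. The count of all genes at least 2-fold lower in Er71-/- cells was 140 as deposited, 66 with both arrays at the median, 62 with the offset and 394 at 1.5-fold; for higher genes it was 38, 27, 13 and 136, and 78 with no filter. With doxycycline the counts of higher and lower genes were 213 and 109 as deposited, 142 and 65 with both arrays at the median, 108 and 61 with the offset, and 558 and 280 at 1.5-fold. These counts are out of 8843 genes as deposited, with the offset and at 1.5-fold, and out of 14860 with no filter. With both arrays at the median they are out of 8158 for the iER71 pair and 8057 for the Er71-/- pair. Taking the mean of a gene's probe sets changed none of the 10 genes, each having 1 probe set. No paired analysis was possible because each group holds 1 array. No replicate could be left out for the same reason, and intensities near the median carry no detection call.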
